A study of Homo sapiens with 51 samples.

Results

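The genes described here are 10 targets and feedback regulators of canonical WNT signalling: AXIN2, NKD1, APCDD1, SP5, LEF1, DKK1, NOTUM, RNF43, ZNRF3 and LGR5. They were taken by symbol out of 38151 coding and lncRNA genes, and were chosen with earlier results of these data known. A region of open chromatin was given to a gene when that gene had the nearest annotated gene end, within 50000 bp. By this rule the 10 genes held 49 of 100584 regions in undifferentiated cells, 79 of 142087 under BMP4 and 91 of 162317 under the treatment labelled SMADi. AXIN2 held the most, with 10, 23 and 23 regions in those tables, and DKK1 held 2, 2 and 4. All of these regions passed the filter on low counts.

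WNT ligands bind Frizzled receptors with LRP co-receptors, which stops the destruction of beta-catenin, and beta-catenin then acts with TCF and LEF factors at target genes. Many of those targets encode brakes on the same pathway, so their activity is widely used as a readout of WNT signalling. In human pluripotent cells WNT and BMP signals together drive primitive streak and mesoderm, while neural induction is helped by blocking SMAD signalling.

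H1, an established human embryonic stem cell line, was profiled by ATAC-seq, an assay whose transposase cuts DNA where chromatin is open. The lines were KO, ΔATG (written DATG in sample names) and unedited WT, with 17, 16 and 18 libraries. The labels name neither the edited gene nor whether an edited line is 1 clone. Cells were taken undifferentiated at day 0 (2 KO, 2 DATG and 2 WT libraries), on days 1 to 5 of BMP4, which the labels call mesoderm (2 libraries for each line and day), and on days 1, 4 and 5 of SMADi, which they call neuroectoderm. Under SMADi there were 2 libraries for each line and day, except KO day 4, DATG day 1 and DATG day 5 with 1 each, which the tests take to vary like the other groups.

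Per library, total counts ranged between 4616521 and 7516259 in undifferentiated cells, between 4019778 and 13850448 with BMP4, and between 7086918 and 23252871 with SMADi. Replicate b of KO on SMADi day 1, as labelled, stood apart. At 283 regions that differed between KO and DATG at day 0, on a scale from 0 (KO) to 1 (DATG), it lay at 0.897, beside 0.921 for DATG day 1 and 0.0636 for the other KO day 1 library. For the 10 genes, KO differences from WT in gene sums under SMADi that cover day 1, and their counts, are therefore given with and without it. Of the 24 named regions called in KO over the SMADi days, 22 were still called without it, with shifts of at most 0.15 on the log2 scale, and the 2 that were not lie at AXIN2 (given below) and ZNRF3 (the region starting at 28896672, -0.61, edgeR adjusted p = 0.0812). Levels are CPM (counts scaled to 1000000 per library) summed over a gene's regions, so levels of different genes are not comparable, because genes hold different numbers of regions. Changes are log2 differences ± standard error (SE) from edgeR's quasi-likelihood test, with p adjusted over all genes or all regions, and a gene or region was called higher or lower, or said to rise or fall, where that p was under 0.05. Whether replicates were grown as separate cultures is not stated, so the p-values measure only how much these libraries vary, and that variation could be technical.

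RefSeq promoter windows of GRCh38.p14, from 250 bases before to 50 after an annotated start, were at hand for 5 of the 10 genes, in 6 windows. The windows of SP5, DKK1, APCDD1 and the inner start of RNF43 are shown because accessible regions that overlap them carry the results below. Capitals mark 7-base TCF/LEF cores, searched as CTTTGAA or CTTTGAT or CTTTGTA or CTTTGTT on both strands, so that TTCAAAG is CTTTGAA read on the other strand.
SP5, chr2:170715087-170715386, plus strand: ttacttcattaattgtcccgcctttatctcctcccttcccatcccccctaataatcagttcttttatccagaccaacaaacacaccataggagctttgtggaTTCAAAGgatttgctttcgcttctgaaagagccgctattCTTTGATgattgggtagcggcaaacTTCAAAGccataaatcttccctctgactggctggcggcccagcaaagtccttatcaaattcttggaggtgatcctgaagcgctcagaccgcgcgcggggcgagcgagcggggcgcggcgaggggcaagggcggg
DKK1, chr10:52314031-52314330, plus strand: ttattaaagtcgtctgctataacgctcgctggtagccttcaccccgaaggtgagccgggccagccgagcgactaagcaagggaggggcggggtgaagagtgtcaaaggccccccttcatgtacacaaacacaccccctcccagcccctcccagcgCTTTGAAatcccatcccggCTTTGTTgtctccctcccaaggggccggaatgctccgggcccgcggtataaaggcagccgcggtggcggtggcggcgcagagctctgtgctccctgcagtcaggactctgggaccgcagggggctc
APCDD1, chr18:10454385-10454684, plus strand: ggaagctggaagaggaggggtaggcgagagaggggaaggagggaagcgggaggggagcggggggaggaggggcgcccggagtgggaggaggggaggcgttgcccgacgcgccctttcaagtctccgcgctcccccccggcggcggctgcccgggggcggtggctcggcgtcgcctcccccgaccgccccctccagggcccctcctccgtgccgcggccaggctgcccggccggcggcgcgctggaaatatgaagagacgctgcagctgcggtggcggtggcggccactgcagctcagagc
RNF43 inner start, chr17:58402672-58402971, minus strand: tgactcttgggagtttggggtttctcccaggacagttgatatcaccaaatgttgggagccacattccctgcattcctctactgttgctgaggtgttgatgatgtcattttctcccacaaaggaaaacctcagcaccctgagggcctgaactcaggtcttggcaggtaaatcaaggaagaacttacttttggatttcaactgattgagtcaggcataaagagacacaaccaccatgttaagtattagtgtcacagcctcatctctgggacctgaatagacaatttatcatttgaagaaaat
The SP5 window held 3 cores, which began 148, 109 and 84 bases before the start, and the DKK1 window held 2, which began 95 and 76 bases before it. The other 4 windows, which include those of LEF1 and the outer RNF43 start, held none of these letters. The LEF1 window, chr4:108166252-108166551, lies inside the gene and overlaps none of its regions, so the LEF1 start region given below was not searched. Of all 35116 windows, 4829 (13.8%) held at least 1 core, so such a match is common and is a description only.

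In undifferentiated cells the 10 genes did not separate the lines. None of the 10 gene sums was called in KO or DATG against WT, where 0.242% and 0.373% of all genes were. None of the 49 regions was called either, beside 0.0855% of all regions for KO and 0.205% for DATG. At an unadjusted p under 0.05 there were 0 gene sums in either line and 3 regions in KO and 1 in DATG, and DESeq2 also called 0. AXIN2, the scaffold of the complex that destroys beta-catenin, had 129 and 125 CPM in KO, 117 and 118 CPM in DATG, and 123 and 111 CPM in WT. SP5, a transcription factor induced by WNT, had 40.0 and 46.3 CPM in KO, 44.9 and 46.0 CPM in DATG, and 43.2 and 44.2 CPM in WT. At AXIN2 both KO libraries lay above WT, by less than the gap between the WT libraries, and at SP5 KO and WT overlapped. These are bulk samples, so here and below fewer cells of a type and less open chromatin per cell cannot be told apart.

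Under BMP4, WT cells gained accessibility at 5 of the 10 genes between day 1 and day 5, and none lost it, beside 30.3% of all genes higher and 16.6% lower. The members' median change was 0.18 against 0.06 over all genes. APCDD1, a membrane protein that binds WNT and its co-receptor and dampens the signal, rose by 0.48 ± 0.10 (edgeR adjusted p = 7.25e-05). SP5 rose by 0.42 ± 0.09 (edgeR adjusted p = 0.000208). LGR5, the R-spondin receptor that strengthens WNT signalling, rose by 0.38 ± 0.12 and LEF1, a DNA-binding partner of beta-catenin, by 0.32 ± 0.10. AXIN2 rose by 0.20 ± 0.06 over the whole span but was highest on day 3, as the day series shows. Its WT sums were 142 and 135 CPM on day 1, 185 and 177 CPM on day 2, 190 and 201.2 CPM on day 3, 154 and 164 CPM on day 4, and 157 and 162 CPM on day 5. The change of AXIN2 was 0.49 ± 0.06 for day 3 against day 1, and it fell by 0.30 for day 4 against day 3. NKD1, DKK1, NOTUM, RNF43 and ZNRF3 were not called for day 5 against day 1.

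The BMP4 calls of AXIN2, LEF1 and LGR5 depended on the scaling. With total-count scaling the median of all genes was -0.08 in place of 0.06, AXIN2 was 0.06 and LEF1 0.18, and only SP5 and APCDD1 were called. TMM factors taken on gene sums put 51.6% of all calls in the higher direction, against 64.6% in the main scaling, and the AXIN2 adjusted p was 0.0835 in edgeR. AXIN2 also lost its call without WT day 1 b (edgeR adjusted p = 0.0594) or WT day 5 b (0.0709), and LEF1 without WT day 1 a (0.0823) or WT day 5 b (0.0797). The fall of AXIN2 after day 3 was not called without WT day 3 b (0.0722) or WT day 4 a (0.108).

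Under SMADi, 5 genes rose and 1 fell in WT cells between day 1 and day 5, beside 26.8% of all genes higher and 16.7% lower. LEF1 had 22.7 and 22.6 CPM on day 1, 39.3 and 45.9 CPM on day 4, and 55.0 and 53.0 CPM on day 5. The libraries of each day lay apart, and the change of 1.25 ± 0.10 was the largest of the 10 genes (edgeR adjusted p = 2.63e-11). Most of this LEF1 gain in CPM lay in 1 region outside the far end of the gene, given below. NKD1, a protein that binds Dishevelled and restrains WNT signalling, rose by 0.63 ± 0.11, AXIN2 by 0.41 ± 0.06, ZNRF3 by 0.31 ± 0.09 and SP5 by 0.28 ± 0.09. DKK1, a secreted antagonist that binds the LRP co-receptors, had 18.8 and 20.2 CPM on day 5 against 25.1 and 26.5 CPM on day 1, a change of -0.39 ± 0.13. Calls were lost for DKK1 without WT day 1 b (edgeR adjusted p = 0.0696), for ZNRF3 without WT day 1 a (0.0531) or WT day 5 a (0.0593), and for SP5 without WT day 1 a (0.0724), WT day 1 b (0.0738) or WT day 5 b (0.112). Total-count scaling put 46.0% of all calls in the higher direction, against 61.6%, and there SP5 (0.109) and ZNRF3 (0.0656) were not called. DESeq2 did not call SP5 (0.0595). With regions limited to 10000 bp, the AXIN2 call was lost (0.1002) and ZNRF3 was -0.03.

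In WT cells under SMADi 24 of the 91 regions rose and 6 fell, beside 23.9% and 17.1% of all regions. More than 1000 bp from a gene end 21 of 54 rose and 4 fell, beside 26.6% and 18.4% of all such regions. Within 1000 bp 3 of 37 rose and 2 fell, beside 12.4% and 14.2%. The intronic region of AXIN2 at chr17:65546144-65546344, 15404 bp inside the gene, went up most. In WT it had 0.541 and 0.780 CPM on day 1, 11.8 and 13.4 CPM on day 4, and 11.6 and 20.3 CPM on day 5. Its change was 4.65 ± 0.29 (edgeR adjusted p = 7.28e-17). A region 3799 bp outside the far end of LEF1, at chr4:108043649-108043849, had 3.60 and 2.99 CPM on day 1, 19.5 and 23.1 CPM on day 4, and 32.2 and 29.3 CPM on day 5, a change of 3.21 ± 0.18. This LEF1 region also rose under BMP4 in WT, by 1.27 ± 0.28. Under BMP4 19 of 79 regions rose and 6 fell in WT, beside 20.3% and 14.7% of all regions.

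The clearest difference between the lines came under SMADi, where most of the 10 genes were more accessible in both mutant lines than in WT. The genes were chosen with earlier results of these data known. The shares of all genes beside their counts therefore describe the set and do not test it. Averaged over days 1, 4 and 5, 9 genes were higher in KO and 1 was lower, beside 27.2% and 20.4% of all genes. In DATG 7 were higher and none lower, beside 20.9% and 15.9%. The members' median difference was 0.30 for KO and 0.26 for DATG, while the median of all genes was 0.05 and 0.04. Without KO day 1 b, 9 were higher in KO and none lower, beside 23.3% and 18.2%. On day 5 both KO libraries lay above both WT libraries at 9 genes and below at RNF43, where 42.0% and 29.1% of all genes did so. With 2 DATG and 2 WT libraries on day 4, DATG lay above WT at 8 genes and below at RNF43, beside 36.9% and 32.1%, and overlapped WT at AXIN2. The single KO library of day 4 and the single DATG library of day 5 also lay above WT at 9 genes and below at RNF43, but with 1 library this is common. It held above and below for 47.0% and 37.1% of all genes in KO, and for 44.9% and 34.6% in DATG. None of the 10 gene sums differed between KO and DATG in edgeR, beside 0.102% of all genes, and 3 did at an unadjusted p under 0.05.

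**Figure D1:**
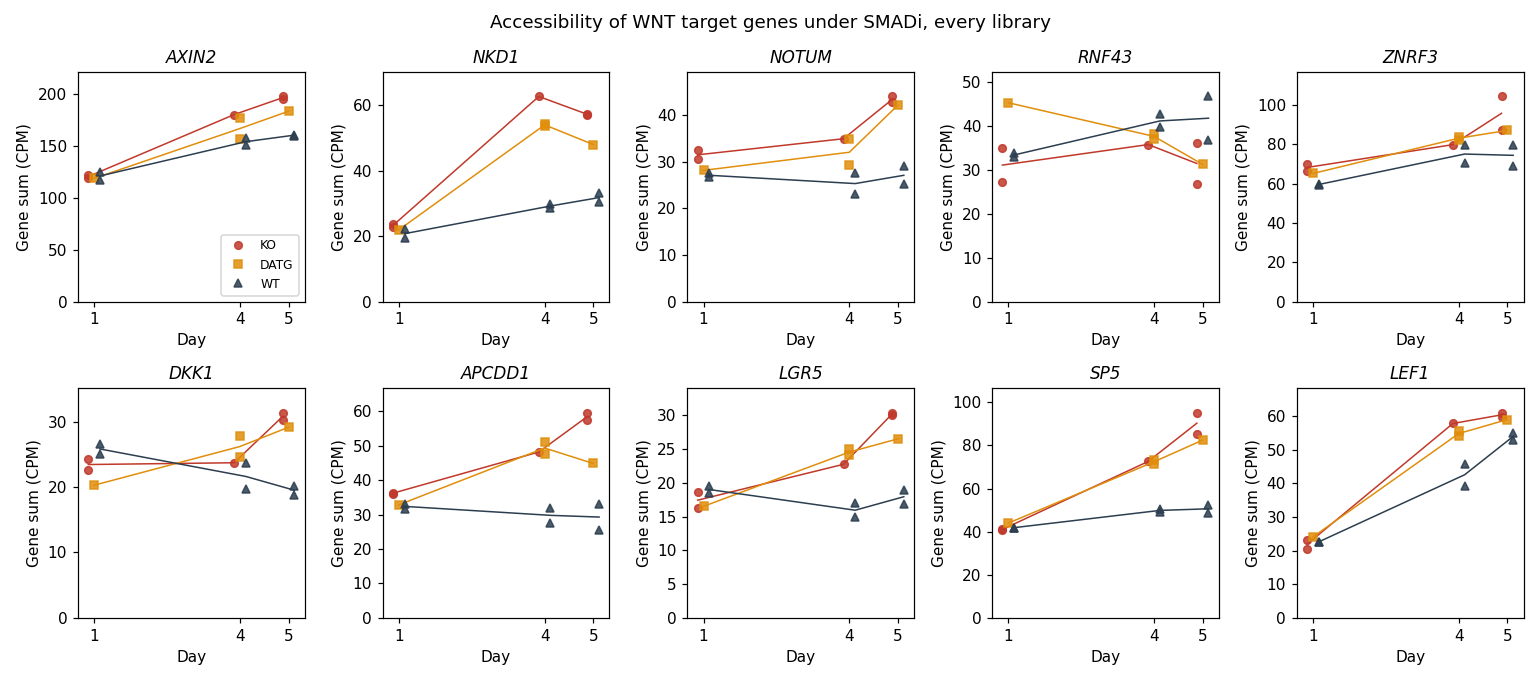
Summed accessibility (CPM) of each of the 10 genes on days 1, 4 and 5 of SMADi, with 1 point per library and lines through the means, for KO, DATG and WT. At SP5 the day 5 points sit at 85.5 to 95.2 CPM in KO, 82.5 CPM in DATG and 48.7 to 52.6 CPM in WT, while the day 1 points lie together.

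The lines were not told apart on day 1 of SMADi, when none of the 10 genes was called in KO (1.59% of all genes) or in DATG (1.61%). At an unadjusted p under 0.05 edgeR gave 1 member in KO and 2 in DATG on that day, and without KO day 1 b the KO counts were also 0 and 1. On day 4 KO was higher at 7 genes, beside 15.0% of all genes, and DATG at 6, beside 17.4%. On day 5 KO was higher at 8, beside 30.9%, and DATG at 7, beside 19.2%. APCDD1, LGR5, NKD1, NOTUM and SP5 were called on both days in both lines. Several of these calls rested on 1 library. On day 4, edgeR's adjusted p in KO was 0.103 for AXIN2 and 0.0627 for LEF1 without WT day 4 a, and 0.105 for NOTUM and 0.0844 for LGR5 without WT day 4 b. In DATG on day 4 it was 0.0900 for LEF1 without WT day 4 a, and for NOTUM 0.325 without DATG day 4 b and 0.243 without WT day 4 b. On day 5 the lower RNF43 sum in KO was lost without KO day 5 a (0.332) or WT day 5 a (0.179), and the higher AXIN2 sum in DATG was lost in 6 of the fits that left out 1 library (0.0514 to 0.0692).

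Of the secreted and surface-bound inhibitors, NOTUM removes the lipid that WNT needs for binding. On day 5 NOTUM had 44.0 and 42.7 CPM in KO, 42.2 CPM in DATG, and 25.1 and 29.1 CPM in WT. Both mutant lines lay above WT, and the mean difference over days was 0.45 ± 0.07 in KO (edgeR adjusted p = 1.19e-05, and 0.46 ± 0.08 without KO day 1 b) and 0.34 ± 0.08 in DATG (1.08e-03). APCDD1 had 59.5 and 57.4 CPM in KO, 44.8 CPM in DATG, and 25.4 and 33.1 CPM in WT on day 5. KO lay highest, DATG between, and the groups did not overlap. The mean difference of APCDD1 was 0.61 ± 0.07 in KO (edgeR adjusted p = 2.27e-08, and 0.61 ± 0.08 without KO day 1 b) and 0.44 ± 0.07 in DATG (1.95e-05). DKK1 had 31.3 and 30.2 CPM in KO, 29.1 CPM in DATG, and 18.8 and 20.2 CPM in WT on day 5. On day 1 the order was different, with 24.3 and 22.6 CPM in KO, 20.3 CPM in DATG, and 25.1 and 26.5 CPM in WT, so that WT was above both. Averaged over days, DKK1 differed by 0.21 ± 0.08 in KO (edgeR adjusted p = 0.0253, and 0.23 ± 0.09 without KO day 1 b) and by 0.17 ± 0.09 in DATG, which was not called. The KO call of DKK1 was lost without KO day 1 a (0.0647), WT day 1 a (0.0598) or WT day 4 b (0.0884), with total-count scaling (0.108), with TMM on gene sums (0.0683) and with regions within 10000 bp (0.0551).

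At the receptors, RNF43 and ZNRF3 are related membrane ubiquitin ligases that clear Frizzled from the cell surface, and LGR5 with its R-spondin ligand holds them in check. LGR5 had 30.1 and 30.4 CPM in KO, 26.5 CPM in DATG, and 16.9 and 19.0 CPM in WT on day 5. The lines did not overlap, and LGR5 was higher by 0.37 ± 0.08 in KO (edgeR adjusted p = 3.98e-04, and 0.41 ± 0.09 without KO day 1 b) and by 0.32 ± 0.09 in DATG (0.00419). ZNRF3 had 104.3 and 87.2 CPM in KO, 87.0 CPM in DATG, and 79.6 and 69.2 CPM in WT on day 5. It was higher by 0.22 ± 0.05 in KO (0.23 ± 0.06 without KO day 1 b) and by 0.17 ± 0.06 in DATG. Of the 17 regions of ZNRF3, 6 were higher and 5 lower in KO (6 and 4 without KO day 1 b), beside 17.8% and 21.6% of all regions. In DATG 4 were higher and 5 lower, beside 11.1% and 17.4%. With regions within 10000 bp alone, ZNRF3 was 0.13 ± 0.08 in KO (edgeR adjusted p = 0.185) and -0.06 ± 0.09 in DATG (0.608). The DATG call was also lost without WT day 4 b (0.0512), with total-count scaling (0.119) and with TMM on gene sums (0.0647).

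RNF43 was the exception among the 10 genes. On day 5 it had 26.7 and 36.1 CPM in KO, 31.2 CPM in DATG, and 46.6 and 36.7 CPM in WT. KO and DATG lay below WT, and 1 KO library was close to the lower WT one. The mean difference of RNF43 was -0.23 ± 0.08 in KO (edgeR adjusted p = 0.0207) and -0.03 ± 0.09 in DATG, which was not called. The KO call was lost without KO day 1 b (-0.17 ± 0.09, 0.109), KO day 5 a (0.0958) or WT day 4 b (0.0506), in DESeq2 (0.0631) and with regions within 10000 bp (0.133). Among RNF43 regions, the lower call with the smallest p lay at chr17:58402774-58402974, 14660 bp inside the gene, and that region overlaps the inner RefSeq promoter window shown above by 198 bp. On day 5 that region had 0.501 and 1.28 CPM in KO, 0.742 CPM in DATG, and 3.82 and 1.85 CPM in WT. Both mutant lines lay below WT, and the mean difference was -0.94 ± 0.24 in KO (edgeR adjusted p = 0.00180) and -0.83 ± 0.25 in DATG (0.0104). At the outer RNF43 promoter, in the region 116 bp outside the gene, the differences were -0.16 ± 0.09 in KO and 0.06 ± 0.10 in DATG, and neither was called.

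Inside the cell, AXIN2 and NKD1 are classic feedback inhibitors. NKD1 showed the largest mean difference of the 10 genes in both lines. On day 4 it had 62.7 CPM in KO, 53.7 and 54.4 CPM in DATG, and 29.9 and 28.5 CPM in WT, and on day 5 it had 57.1 and 57.4 CPM in KO, 48.0 CPM in DATG, and 30.4 and 33.2 CPM in WT. The mutant lines lay well above WT on both days, and the mean difference was 0.70 ± 0.06 in KO (edgeR adjusted p = 5.01e-10, and 0.71 ± 0.07 without KO day 1 b) and 0.52 ± 0.07 in DATG (1.05e-06). Of the 10 regions of NKD1, 7 were higher in KO, also without KO day 1 b, beside 17.8% of all regions, and 3 in DATG, beside 11.1%, and none was lower. The most changed one, 8136 bp outside the gene at chr16:50540160-50540360, had 4.58 and 5.17 CPM in KO, 4.87 CPM in DATG, and 0.882 and 2.05 CPM in WT on day 5. Its mean difference was 1.21 ± 0.22 in KO and 1.26 ± 0.25 in DATG (edgeR adjusted p = 3.71e-05 and 1.17e-04).

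AXIN2 had 196 and 198 CPM in KO, 184 CPM in DATG, and 161 and 160 CPM in WT on day 5. The mean difference of AXIN2 was 0.17 ± 0.04 in KO (edgeR adjusted p = 5.90e-04, and 0.18 ± 0.04 without KO day 1 b), and that in DATG, 0.09 ± 0.04, was not called. Of its 23 regions, 5 were higher and 4 lower in KO, close to the 17.8% and 21.6% of all regions, and 3 and 3 without KO day 1 b. In DATG 2 were higher and 2 lower, beside 11.1% and 17.4%. Near its start, the region 498 bp inside the gene, at chr17:65561050-65561250, had 22.0 and 21.1 CPM in KO, 19.4 CPM in DATG, and 10.1 and 9.86 CPM in WT on day 5. The lines did not overlap there, and the mean differences were 0.53 ± 0.11 in KO and 0.56 ± 0.12 in DATG. A region 11395 bp outside the gene, at chr17:65572943-65573143, went down, with 5.73 and 5.11 CPM in KO, 7.01 CPM in DATG, and 15.9 and 13.8 CPM in WT on day 5. Its mean differences were -0.85 ± 0.11 in KO (edgeR adjusted p = 3.26e-08) and -0.65 ± 0.11 in DATG (1.31e-05), although on day 1 it had 20.0 and 20.7 CPM in KO, 22.1 CPM in DATG, and 21.7 and 22.7 CPM in WT. The intronic region that rose most in WT reached 28.1 and 33.3 CPM in KO and 30.7 CPM in DATG on day 5, against 11.6 and 20.3 CPM in WT. Its KO difference, 0.61 ± 0.20, was not called without KO day 1 b (0.28, 0.516) or WT day 1 a (0.53, 0.0692).

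**Figure D2:**
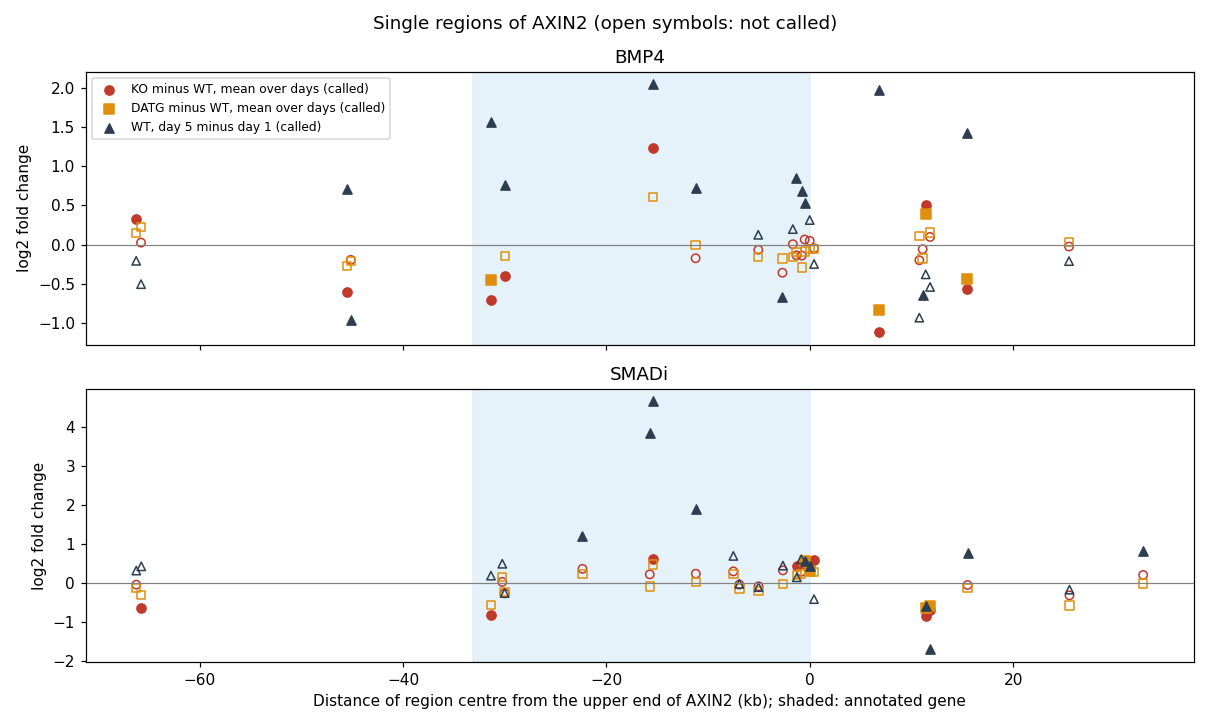
Log2 change of each of the 23 AXIN2 regions under BMP4 (top) and SMADi (bottom), as KO minus WT, DATG minus WT and WT day 5 minus day 1, against the distance (kb) of the region from the gene's upper end, with filled symbols for called changes. Under SMADi the intronic WT changes reach 4.65, and the region 11395 bp outside the gene lies at -0.85 in KO.

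In the nucleus, SP5 was higher in both mutant lines, as NOTUM and APCDD1 were. It had 95.2 and 85.5 CPM in KO, 82.5 CPM in DATG, and 48.7 and 52.6 CPM in WT on day 5, against 41.3 and 40.8 CPM in KO, 43.9 CPM in DATG, and 41.8 and 41.9 CPM in WT on day 1. The lines were close on day 1 and apart on day 5. The mean difference was 0.45 ± 0.05 in KO (edgeR adjusted p = 5.01e-08, and 0.45 ± 0.06 without KO day 1 b) and 0.44 ± 0.06 in DATG (4.13e-07). The region at the SP5 start, chr2:170715259-170715459, overlaps the promoter window with 3 TCF/LEF cores by 128 bp. The overlap is the part of the window after the cores, so no whole core lies inside the region. On day 5 it had 31.5 and 30.6 CPM in KO, 24.4 CPM in DATG, and 12.8 and 13.8 CPM in WT. The groups did not overlap, and its mean differences were 0.67 ± 0.10 in KO (edgeR adjusted p = 5.58e-07) and 0.59 ± 0.11 in DATG (3.41e-05).

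LEF1 differed most on day 4, with 57.9 CPM in KO, 54.0 and 55.7 CPM in DATG, and 39.3 and 45.9 CPM in WT. By day 5 the gap had narrowed to 61.0 and 59.8 CPM in KO and 59.0 CPM in DATG, against 55.0 and 53.0 CPM in WT. The mean difference was 0.19 ± 0.06 in KO (edgeR adjusted p = 0.0152, and 0.22 ± 0.07 without KO day 1 b) and 0.20 ± 0.07 in DATG (0.0230). The KO call was lost without KO day 1 a (0.0652) or WT day 4 a (0.0559), and the DATG call without DATG day 4 b (0.0553) or WT day 4 a (0.0700). Total-count scaling ended both calls (0.0888 in KO and 0.112 in DATG), and TMM on gene sums ended that in DATG (0.0697). The region at the LEF1 start, 109 bp inside the gene, was higher by 0.42 ± 0.10 in KO and 0.36 ± 0.10 in DATG. The mean difference of the region outside its far end that rose so much in WT was not called in either line, and on day 5 it had 20.7 and 24.97 CPM in KO, 24.1 CPM in DATG, and 32.2 and 29.3 CPM in WT.

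Over the 91 SMADi regions, 36 were higher and 12 lower in KO, beside 17.8% and 21.6% of all regions. Without KO day 1 b fewer were called in each direction, among these regions as over all regions. In DATG 23 were higher and 9 lower, beside 11.1% and 17.4%. None differed between KO and DATG in edgeR, beside 0.0598% of all regions, and 4 did at an unadjusted p under 0.05. Higher regions were more frequent near a gene end, for all regions as for those of the 10 genes. Within 1000 bp, 21 of 37 regions were higher and 1 lower in KO, beside 26.0% and 8.42% of all regions at that distance. In DATG 14 of 37 were higher and 1 lower, beside 14.2% and 6.80%. Without KO day 1 b the KO counts within 1000 bp were also 21 and 1. Farther out, 15 of 54 were higher and 11 lower in KO (13 and 9 without that library), beside 14.9% and 25.4%, and 9 were higher and 8 lower in DATG, beside 10.1% and 20.3%. The APCDD1 start gives an example close to an end. Its region at chr18:10454524-10454724, 11 bp outside the gene and overlapping the window above by 161 bp, had 19.7 and 21.4 CPM in KO, 14.2 CPM in DATG, and 6.91 and 7.28 CPM in WT on day 5. All mutant libraries lay above WT there, and the mean difference was 0.80 ± 0.13 in KO (edgeR adjusted p = 2.99e-06) and 0.52 ± 0.14 in DATG (0.00410). At the DKK1 start, with its 2 cores, the region at chr10:52314154-52314354 had 14.9 and 14.9 CPM in KO, 15.1 CPM in DATG, and 9.26 and 10.0 CPM in WT on day 5. The DKK1 difference was 0.31 ± 0.11 in KO and 0.39 ± 0.11 in DATG, and the KO call was lost without WT day 4 b (0.0587) and with total-count scaling (0.0522). Far inside ZNRF3, the region at chr22:28925951-28926151 moved the other way, with 1.07 and 0.703 CPM in KO, 0.835 CPM in DATG, and 3.82 and 2.85 CPM in WT on day 5, a mean difference of -1.33 ± 0.23 in KO and -1.10 ± 0.23 in DATG.

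**Figure D3:**
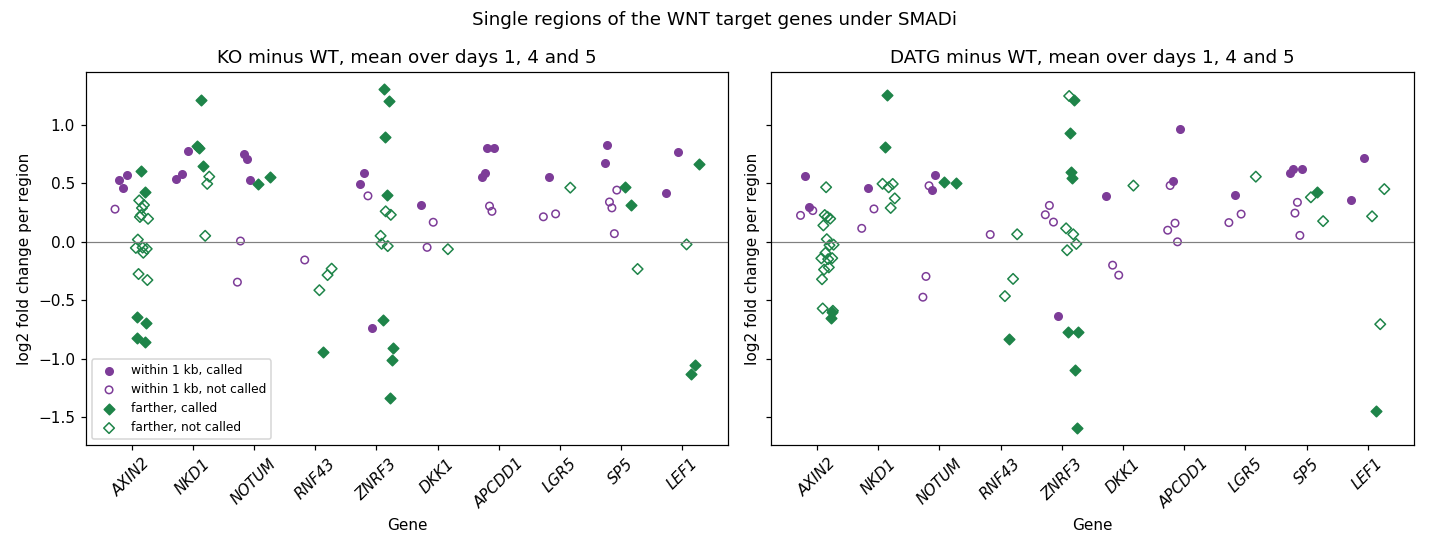
Mean log2 difference from WT over the SMADi days for each of the 91 regions by gene, in KO (left) and DATG (right), with circles for regions within 1000 bp of a gene end, diamonds for those farther out, and filled symbols for called differences. Within 1000 bp of an end 21 of 37 regions were called higher in KO and 1 lower, and farther out 15 of 54 were higher and 11 lower.

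The interaction test, the day 5 against day 1 change in a mutant line minus that in WT, asked whether the lines moved apart with time under SMADi. In KO 7 genes gained more than in WT and none less, beside 19.2% and 12.4% of all genes, with a members' median of 0.56 against 0.11. In DATG 5 gained more and RNF43 less, beside 10.0% and 11.2%, with a median of 0.53 against -0.01. In KO the interaction of LGR5 was 0.86 ± 0.19 (edgeR adjusted p = 9.62e-04, and 0.78 ± 0.21 without KO day 1 b), and SP5 had 0.85 ± 0.12 (9.67e-06, and 0.86 ± 0.14 without it). APCDD1 had 0.80 ± 0.16, DKK1 0.79 ± 0.18, NKD1 0.67 ± 0.15, NOTUM 0.44 ± 0.17 and AXIN2 0.30 ± 0.09 in KO, and without KO day 1 b these were 0.82, 0.75, 0.65, 0.41 and 0.29. Without that library NOTUM alone of the 7 was not called, and over all genes fewer were called too. In DATG the interactions were 0.92 ± 0.22 at DKK1, 0.75 ± 0.23 at LGR5, 0.63 ± 0.15 at SP5, 0.56 ± 0.20 at NOTUM, 0.56 ± 0.19 at APCDD1 and -0.83 ± 0.22 at RNF43. DATG had 1 library on each of these days. At RNF43, DATG had 45.2 CPM against 32.9 and 33.8 CPM in WT on day 1, a difference of 0.44, and lay below WT on day 5, a difference of -0.39, and neither day was called.

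Total-count scaling moved the median KO interaction of all genes to -0.04 and the share of higher calls to 33.9%, against 60.9%. AXIN2 (0.15, edgeR adjusted p = 0.196) and NOTUM (0.29, 0.202) were not called in KO there, nor with TMM on gene sums (0.0930 and 0.135). AXIN2 was also lost without WT day 1 b (0.0597), and NOTUM without any of the day 1 and day 5 libraries of KO and WT other than WT day 5 b (0.0627 to 0.118). In DATG, NOTUM was lost in 9 of the fits that left out 1 library (0.0520 to 0.102), LGR5 without WT day 1 a (0.0519), and APCDD1 without WT day 1 a (0.0571), WT day 1 b (0.0890) or WT day 5 a (0.0884), while DESeq2 called neither NOTUM (0.0763) nor APCDD1 (0.0589). Among regions, 15 of 91 had a higher and 6 a lower KO interaction, beside 6.89% and 12.0% of all regions. Without KO day 1 b fewer were called in each direction, among these regions as over all regions. In DATG 8 were higher and 6 lower, beside 5.10% and 8.78%.

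Under BMP4 few of the same gene sums were called between the lines. Averaged over days 1 to 5, LGR5 alone was lower in KO and none was higher, beside 14.6% of all genes lower and 11.3% higher. In DATG LGR5 and NOTUM were lower and none was higher, beside 8.02% and 4.91%. At an unadjusted p under 0.05 there were 3 members in KO and 4 in DATG. Each of 2 other ways of forming the sums gave 3 lower genes in KO, which were AXIN2, LGR5 and NKD1 with regions within 10000 bp, and LGR5, RNF43 and SP5 with coding genes alone. The members' median was -0.07 in KO against -0.01 over all genes. None of the 10 differed between KO and DATG (2.46% of all genes), and none had a called interaction in KO (6.93%) or in DATG (0.513%). At an unadjusted p under 0.05 edgeR gave 2 members for KO against DATG, 3 for the KO interaction and 1 for the DATG interaction, and DESeq2 called 0 in each at its adjusted p.

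**Figure D4:**
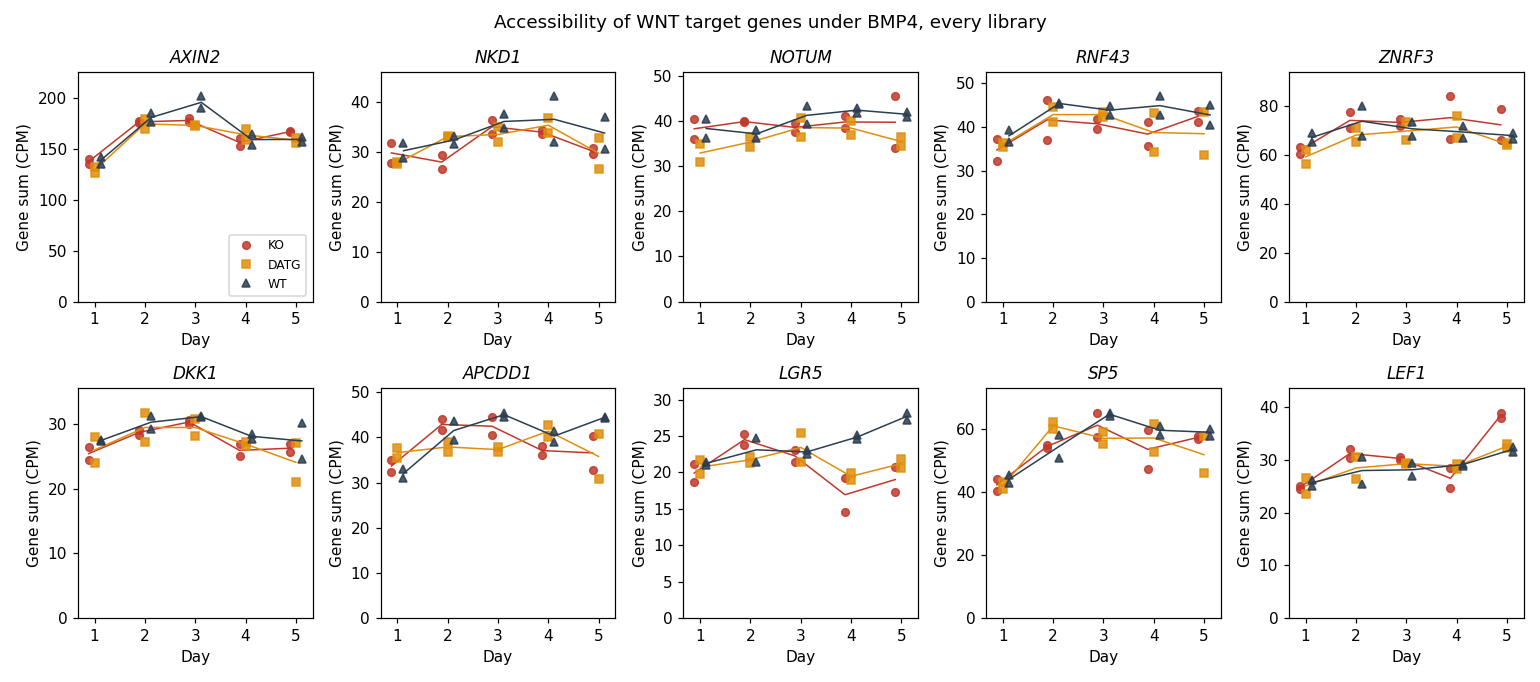
Summed accessibility (CPM) of each of the 10 genes on days 1 to 5 of BMP4, with 1 point per library and lines through the means, for KO, DATG and WT. The LGR5 points of KO and DATG lie below WT on days 4 and 5, and AXIN2 is highest on day 3 in WT.

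LGR5 was called on days 4 and 5 in KO and on no single day in DATG, while its interactions, -0.45 in KO and -0.35 in DATG, were not called. On day 4 it was the only member called in KO, beside 1.37% of all genes higher and 4.52% lower. On day 5 LGR5 and APCDD1 were lower in KO and none was higher, beside 14.2% of all genes lower and 7.05% higher. On day 4 LGR5 had 14.6 and 19.3 CPM in KO, 19.9 and 19.0 CPM in DATG, and 25.1 and 24.6 CPM in WT, and on day 5 it had 17.3 and 20.7 CPM in KO, 21.8 and 20.6 CPM in DATG, and 28.2 and 27.3 CPM in WT. Both mutant lines lay below WT on both days. The KO difference was -0.55 ± 0.13 on day 4 (edgeR adjusted p = 0.00449) and -0.54 ± 0.12 on day 5 (6.99e-04), and the mean over days was -0.23 ± 0.06 (0.00151). The day 4 call was lost without KO day 4 a (0.206) or WT day 4 a (0.0764), and the day 5 call without KO day 5 a (0.0504). In DATG the mean was -0.17 ± 0.06 for LGR5 (0.0418) and -0.15 ± 0.05 for NOTUM (0.0284). Both DATG calls were lost in DESeq2 (0.158 and 0.102), with total-count scaling and with TMM on gene sums, and leaving out 1 library in turn ended LGR5 in 14 fits and NOTUM in 8. APCDD1 on day 5 had 32.8 and 40.4 CPM in KO, 40.7 and 30.8 CPM in DATG, and 44.6 and 44.3 CPM in WT. Its KO difference that day, -0.28 ± 0.10, was not called without KO day 5 a (0.500), WT day 5 a (0.114) or WT day 5 b (0.157).

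At the start of LGR5 the region at chr12:71439068-71439268, 39 bp inside the gene, had 2.17 and 3.88 CPM in KO, 3.82 and 6.71 CPM in DATG, and 7.51 and 9.58 CPM in WT on day 5 of BMP4. WT lay above both lines, and the mean difference was -0.78 ± 0.14 in KO (edgeR adjusted p = 6.33e-06) and -0.49 ± 0.13 in DATG (0.00915, and 0.0519 without DATG day 3 b or 0.121 in DESeq2). In WT this LGR5 region rose by 1.37 ± 0.24 between day 1 and day 5. A region 6789 bp outside AXIN2, at chr17:65568337-65568537, followed the day 3 peak. On day 3 it had 3.66 and 2.28 CPM in KO, 5.31 and 4.76 CPM in DATG, and 11.5 and 9.73 CPM in WT. The lines did not overlap, the WT change to day 3 was 2.57 ± 0.26, and the mean difference was -1.11 ± 0.14 in KO (edgeR adjusted p = 8.56e-10) and -0.83 ± 0.14 in DATG (8.45e-06). The AXIN2 sum was not called in either line under BMP4, while this region was lower in both.

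Over the 79 BMP4 regions, 5 were higher and 14 lower in KO, beside 9.08% and 12.4% of all regions, and 2 were higher and 8 lower in DATG, beside 4.11% and 5.22%. DESeq2 called 1 higher and 3 lower in DATG. A single region differed between KO and DATG (1.84% of all), 35155 bp inside ZNRF3 at chr22:28918627-28918827. The difference there was -0.45 ± 0.13 (edgeR adjusted p = 0.0400), and it was not called in DESeq2 (0.264) or in 13 of the fits that left out 1 library. The KO interaction was called at 3 regions (2.09% of all) and the DATG interaction at none in edgeR (0.0760%, with 5 regions at an unadjusted p under 0.05 and 0 in DESeq2). Those 3 lay at LGR5 (-1.56 ± 0.41) and AXIN2 (-1.57 ± 0.31 and 1.69 ± 0.40), and DESeq2 called none of them. At the SP5 start the region at chr2:170715269-170715469 was lower, by -0.36 ± 0.08 in KO and -0.31 ± 0.08 in DATG (adjusted p of 0.0621 in DESeq2), the opposite of its direction under SMADi.

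Some regions were called in opposite directions under the 2 treatments. Of 65 regions that overlapped by more than 100 bp between the BMP4 and SMADi tables, 6 were lower in KO under BMP4 and higher under SMADi, beside 1.62% of all 114795 regions shared in this way, and 1 was the reverse, beside 4.86%. In KO 1 was higher in both and 1 lower in both, beside 1.02% and 1.74%. In DATG 3 were lower under BMP4 and higher under SMADi, beside 0.602%, and 1 was the reverse, beside 2.32%. The tables were made on separate region sets, so the difference between treatments itself was not tested. The reverse case was the region about 11.4 kb outside AXIN2. Under BMP4 it had 25.6 and 22.7 CPM in KO, 23.6 and 18.6 CPM in DATG, and 15.5 and 11.1 CPM in WT on day 5, with mean differences of 0.50 ± 0.07 in KO and 0.39 ± 0.07 in DATG. Under SMADi it was lower in both lines, as given above. In WT cells 7 shared regions rose under both treatments, beside 6.01%, and 1 fell under both, beside 6.52%.

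**Figure D5:**
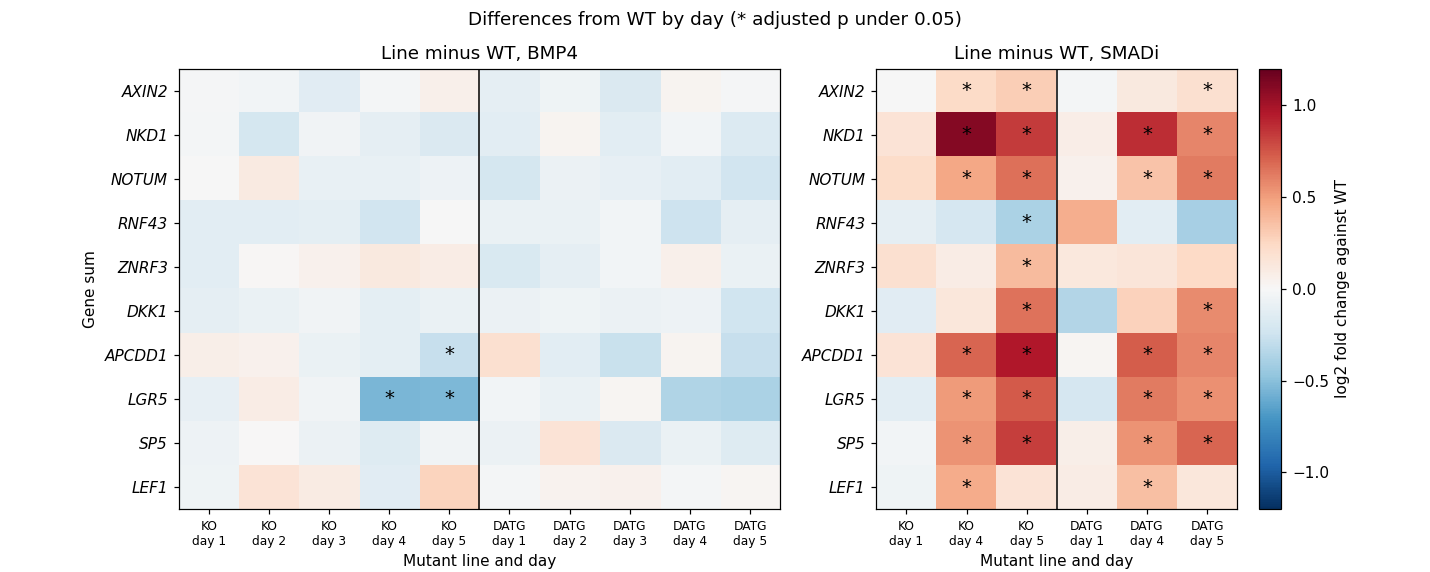
Log2 difference from WT of each of the 10 gene sums (rows) on each day in KO and DATG (columns), under BMP4 (left) and SMADi (right), as colour, with a star where the edgeR adjusted p was under 0.05. Under SMADi the values on days 4 and 5 are above 0 at 9 genes in KO, while under BMP4 LGR5 has the lowest values, -0.55 and -0.54 in KO on days 4 and 5.

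Other genes of the pathway were counted from lists of 76 genes, to be read against the 27.2% of all genes higher and 20.4% lower in KO, and 20.9% and 15.9% in DATG, under SMADi. Under SMADi, 7 of 19 WNT ligands were higher and 4 lower in KO, and 7 and 2 in DATG, with WNT9A at 0.74 ± 0.04 in KO and 0.74 ± 0.05 in DATG and WNT3 at -0.19 ± 0.05 and -0.15 ± 0.05. Of 17 receptors 8 were higher and 3 lower in KO, with FZD2 at 0.29 ± 0.04 and FZD8 at -0.23 ± 0.06, and 9 were higher and 1 lower in DATG. Among 14 cytoplasmic and nuclear transducers 10 were higher and 1 lower in KO, where CSNK1A1, a kinase that primes beta-catenin for destruction, had 0.36 ± 0.07 and TCF7 -0.23 ± 0.05, and 6 were higher and none lower in DATG. Of 11 secreted antagonists 3 were higher and 1 lower in KO, with SFRP1 at 0.26 ± 0.04 and CER1, which also blocks Nodal and BMP, at -0.79 ± 0.12, and 4 were higher and 1 lower in DATG. The 4 R-spondins had 2 higher and 1 lower in each line, with RSPO1 at 0.39 ± 0.06 in KO and 0.29 ± 0.07 in DATG. Of 11 further WNT targets 4 were higher and none lower in KO, led by TNFRSF19 at 0.23 ± 0.04, and 3 were higher and 1 lower in DATG. Without KO day 1 b the KO counts higher and lower were 7 and 3 ligands, 8 and 2 receptors, 7 and 1 transducers, 3 and 1 antagonists, 2 and 1 R-spondins, and 3 and 0 further targets. Medians of these lists in KO ran from 0.05 (further targets) to 0.20 (transducers), against 0.30 for the 10 genes. The lists, like the 10 genes, were chosen with earlier results known, so this too is a description.

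Under BMP4 the same lists held calls in both directions in KO, where 11.3% of all genes were higher and 14.6% lower. Of the ligands 3 were higher and 4 lower, of the receptors 4 and 3, of the R-spondins 2 and 0, of the transducers 1 and 1, of the antagonists 2 and 1, and of the further targets 1 and 2. FZD6, a Frizzled receptor, rose by 3.24 ± 0.37 in WT between day 1 and day 5 and was -1.08 ± 0.23 in KO. CSNK1A1 rose by 2.12 ± 0.28 in WT and was -1.04 ± 0.17 in KO and -0.52 ± 0.15 in DATG. RSPO1 was 0.32 ± 0.05 in KO and 0.26 ± 0.05 in DATG. In DATG, where 4.91% of all genes were higher and 8.02% lower, 1 ligand was higher and 3 lower, no receptor was called, 2 R-spondins were higher, 1 transducer was lower, 1 antagonist was higher and 1 lower, and 2 further targets were lower.

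Markers of the labelled cell types were checked in WT and moved with these differences, and their part in them was not tested. Between day 1 and day 5 in WT, all 4 pluripotency genes fell and 5 of 6 mesoderm genes rose under BMP4, while TBXT fell (-0.63 ± 0.27). Of all genes 30.3% were higher and 16.6% lower there. Under SMADi 3 of the 4 pluripotency genes fell and SOX2 rose (0.34 ± 0.07), beside 26.8% of all genes higher and 16.7% lower. Of the 6 neuroectoderm genes only PAX6 rose (0.26 ± 0.09), so these gene sums show few neural marker changes after day 1. Changes made by day 1 are not seen in this comparison. Of the mesoderm genes APLNR rose (0.87 ± 0.18), HAND1 (-0.33 ± 0.08) and TBXT (-0.81 ± 0.28) fell, and the others were not called. In KO under SMADi 4 of the neuroectoderm genes were higher, with HES5 at 0.57 ± 0.06, in DATG 2 were, and in neither line was any of the 6 lower, beside 27.2% and 20.9% of all genes higher. These marker counts in KO under SMADi were the same without KO day 1 b. Their summed level on day 5 was 563 to 580 CPM in KO, 558 CPM in DATG and 387 to 395 CPM in WT. Of 4 pluripotency genes 3 were lower and 1 higher in each line, with NANOG at -0.82 ± 0.11 in KO and -0.86 ± 0.12 in DATG, and SOX2, also a neural gene, was the higher one in each. The summed pluripotency level, which includes SOX2, was 287 to 305 CPM in KO, 307 CPM in DATG and 258 to 263 CPM in WT on day 5. Of 6 mesoderm genes 3 were higher in KO and 2 in DATG, and none was lower. Under BMP4 5 of the 6 mesoderm genes were lower in KO and 5 in DATG, and none was higher, beside 14.6% and 8.02% of all genes lower. All 6 neuroectoderm and all 4 pluripotency genes were higher in KO under BMP4, and 4 and 2 of them in DATG, beside 11.3% and 4.91% of all genes higher. PAX6 was 0.27 ± 0.04 in KO and 0.13 ± 0.05 in DATG, and NANOG 0.30 ± 0.07 and 0.25 ± 0.08. The summed neuroectoderm level on day 5 of BMP4 was 471 to 505 CPM in KO, 420 to 428 CPM in DATG and 366 to 386 CPM in WT, and the summed pluripotency level 279 to 285 CPM in KO, 249 to 285 CPM in DATG and 227 to 234 CPM in WT. The mesoderm sum on day 5 was 441 to 446 CPM in KO, 487 to 513 CPM in DATG and 581 to 646 CPM in WT. The mesoderm list shares TBXT with the further WNT targets.

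By likeness of level over the 15 BMP4 means of line and day, on log2(CPM + 1) and among 17143 coding genes, AXIN2 was most like FZD1, a Frizzled receptor, with a Pearson correlation of 0.969. SP5 was most like BRWD3 (0.974), APCDD1 like UBR3 (0.943), LEF1 like SLC44A3 (0.934), DKK1 like PCDH7 (0.933), RNF43 like ZDHHC17 (0.931), ZNRF3 like ZYG11B (0.920), NKD1 like CSGALNACT2 (0.913), NOTUM like ZNF302 (0.911) and LGR5 like SERPINB6 (0.889). These are descriptions over means that share libraries, and each was the highest of many candidates.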

How the data were processed

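ATAC-seq read counts in regions of 201 bp were deposited by the authors as raw whole numbers in 3 tables (day 0, BMP4, SMADi). Per the submitters' processing notes, MACS2 and GRCh38 were used. Not given in the sources used here are the aligner, how duplicates were handled, and whether read ends were shifted for the transposase. Per the labels' protocols the libraries were amplified by PCR, so reads are not independent molecules and the depth bears on counting error only. Each region, by its centre, was given to the coding or lncRNA gene of RefSeq GRCh38.p14 with the nearest end within 50000 bp. Counts were scaled with TMM factors of the region table, filtered with filterByExpr and tested with edgeR 4.0.16 (R 4.3.3, quasi-likelihood, robust) with 1 mean per line and day, over all genes or regions, with Benjamini-Hochberg adjustment. DESeq2 1.42.0 was an alternative, and tables were arranged with pandas 2.3.3 in python 3.11.15. The scripts were tested on simulated data. All 10 genes are described, and the regions named are, per gene, that nearest a gene end, that with the highest mean CPM, and the called region with the smallest p in each direction of a comparison. Other pathway genes are named by that last rule within each list. The members and the gene lists were chosen with earlier results of these data known. Alternatives were the scaling, the filter, the window of 10000 bp, coding genes alone, a replicate block and leaving out each library. The labels do not say what the letters a and b share, and the main fit did not pair samples by them. Between groups, the median correlation of deviations was -0.111 at day 0, 0.0409 under BMP4 and -0.0313 under SMADi. It was over 0.1 for 23 of 105 pairs of groups under BMP4 (at most 0.221) and 2 of 15 under SMADi (at most 0.293).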

Additional observations from a re-analysis of the deposited data

Results flagged for a closer look

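Under SMADi the change from day 1 to day 5 differed between KO and WT by the interaction test, on the log2 scale, at SP5 (0.85), LGR5 (0.86), APCDD1 (0.80), DKK1 (0.79), NKD1 (0.67), NOTUM (0.44) and AXIN2 (0.30). The KO calls of NOTUM and AXIN2 depended on the scaling and on the libraries left out, as given above. Between DATG, with 1 library on each of these days, and WT the change differed at DKK1 (0.92), LGR5 (0.75), SP5 (0.63), APCDD1 (0.56), NOTUM (0.56) and RNF43 (-0.83). Under BMP4 the same test marked 3 single regions in KO, at LGR5 (region starting at 71439068, -1.56) and AXIN2 (regions starting at 65577020, -1.57, and 65550310, 1.69). DESeq2 called none of these regions.

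On day 5 the libraries of a mutant line lay wholly above WT under SMADi and wholly below WT under BMP4 at several gene sums, and this difference between treatments was not tested. Under SMADi 42.0% of all genes lay above WT in KO that day, and 44.9% in DATG, which had 1 library. The share of all genes below WT under BMP4, or opposite under the 2 treatments, was not taken, so these cases are a description only. In KO, AXIN2 and LEF1 lay above WT under both treatments that day. For APCDD1 the SMADi difference was 0.96 in KO and 0.58 in DATG, with -0.28 and -0.27 under BMP4. For LGR5 it was 0.74 in KO and 0.55 in DATG, with -0.54 and -0.38 under BMP4. In DATG NOTUM had 0.62 under SMADi and -0.23 under BMP4, SP5 had 0.70 and -0.16, and ZNRF3 had 0.24 and -0.08. None of the 10 genes was called in DATG on day 5 of BMP4, beside 1.96% of all genes higher and 5.33% lower. ZNRF3 was not called in DATG on day 5 of SMADi either.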

How the results depend on the processing

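Under SMADi the counts of member genes called stayed within 1.5 times the main count in every planned setting other than leaving out a library. Under BMP4 total-count scaling gave 2 genes in place of 5 for WT day 5 against day 1. For KO against WT, regions within 10000 bp gave 3 and coding genes alone 3, in place of 1. For DATG against WT, DESeq2, total-count scaling and TMM on gene sums each gave 0 in place of 2. Coding genes alone gave 1 KO interaction in place of 0. Of single regions, DESeq2 called 14 in place of 25 in WT under BMP4, 4 in place of 10 in DATG, 0 in place of 1 for KO against DATG and 0 in place of 3 for the KO interaction. Under SMADi it called 12 in place of 21 KO interactions and 5 in place of 14 DATG interactions, and the fit with a replicate block called 9 of the last. The block also ended gene calls of ZNRF3 in DATG, of NOTUM in both interactions and of AXIN2 in KO on day 4. With regions within 10000 bp ZNRF3 under SMADi turned to -0.0281 in WT and -0.0609 in DATG against WT. The causes were not tested.

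Leaving out each library in turn gave 3 to 5 genes in WT, 1 to 2 in KO, 0 to 3 in DATG, and 0 to 1 for each interaction under BMP4. Under SMADi it gave 4 to 7 in WT, 8 to 10 in KO, 6 to 8 in DATG, 5 to 7 KO interactions and 4 to 7 DATG interactions. At day 0 and for KO against DATG under BMP4 it gave 0 throughout. No comparison could be made without the only library of a group it uses. Such libraries under SMADi were KO day 4, DATG day 1 and DATG day 5. The KO range there thus covers 14 of 15 fits, and each DATG range covers 13, so the ranges do not test those libraries. Over the gene sums named, 62 of the other settings ended a call, 2 turned the direction and 503 did neither.

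Total-count scaling lowered the share of higher calls among all genes under SMADi to 42.5% in KO and 38.5% in DATG against WT, from 57.2% and 56.8%. Depth limits single regions most, where levels fall below 1 CPM.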
